A study of Homo sapiens with 6 samples.

Results

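The peaks described here are the sites where RNA was recovered with SF3B4, a protein of the spliceosome, over input in HEK293T, a cell line derived from human embryonic kidney and transformed with viral genes. All peaks of the deposited SF3B4 list in build hg38 were taken, 3660 of the 3930 peaks in the series. The other 270 peaks belong to G4PID, an engineered ligase that adds biotin near G-quadruplexes. The series has 6 libraries, 2 with an anti-SF3B4 antibody, 2 with an anti-HA antibody for G4PID and 2 of input RNA without an antibody. They were made by eCLIP, in which RNA fragments that come down with a protein are sequenced beside the RNA of the lysate. The protocol text, which all samples share, describes HEK293T cells that received a plasmid for G4PID or for the miniTurboID ligase, each with EGFP, by Lipofectamine 3000 and were then given biotin. It does not say whether this holds for the cells of the SF3B4 and input libraries. The labels do not name separate cultures for the 2 libraries of an antibody. The authors gave 1 list for both SF3B4 libraries, so no value per library could be shown, and intervals below cover counting error over peaks, introns or genes only. The files give no read totals, so the depth behind the peaks is unknown.

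Before an intron is removed, the U2 small nuclear ribonucleoprotein (snRNP) settles on the branch point. This is an adenosine a short way before the 3' splice site, or acceptor. SF3B4 is an RNA-binding subunit of SF3b, the part of the U2 snRNP that clamps this region, and it contacts pre-mRNA just upstream of the branch point. The questions put to the list were which genes carried such peaks, whether the intron was the first, an internal or the last of its gene, and how many introns of 1 gene were marked.

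The acceptors below are examples of where peaks lie. They were chosen from the introns whose letters could be read from an annotated transcript that covers them, and they stand for a first, internal or last intron among the highest peaks, for an intron of a gene with many bound introns, and for SNHG5, the 1 gene of at least 4 introns in which every intron was bound. Each run holds the last 60 nt of the intron and the first 5 nt of the next exon, 5' to 3' in the sense of the RNA, from GENCODE release 29 transcripts in hg38. Capitals mark the bases inside the deposited peak.
HNRNPA2B1 intron 1 of 10, chr7:26197728-26197792, minus strand: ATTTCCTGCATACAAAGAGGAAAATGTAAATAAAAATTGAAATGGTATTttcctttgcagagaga
EEF1A1 intron 3 of 6, chr6:73518844-73518908, minus strand: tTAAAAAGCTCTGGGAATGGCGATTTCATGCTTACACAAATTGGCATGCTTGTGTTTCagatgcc
EIF4A1 intron 5 of 10, chr17:7576996-7577060, plus strand: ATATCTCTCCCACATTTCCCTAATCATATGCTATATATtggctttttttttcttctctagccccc
RPL6 intron 2 of 6, chr12:112408334-112408398, minus strand: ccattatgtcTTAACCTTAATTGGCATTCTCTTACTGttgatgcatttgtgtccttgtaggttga
HNRNPU intron 13 of 13, chr1:244854499-244854563, minus strand: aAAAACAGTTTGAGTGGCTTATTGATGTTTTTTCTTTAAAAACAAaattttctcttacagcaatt
RPL18 intron 6 of 6, chr19:48615443-48615507, minus strand: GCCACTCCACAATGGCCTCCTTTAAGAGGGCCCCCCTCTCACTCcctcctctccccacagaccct
DNMT1 intron 11 of 39, chr19:10162744-10162808, minus strand: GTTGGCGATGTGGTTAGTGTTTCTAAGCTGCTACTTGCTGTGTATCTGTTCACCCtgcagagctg
FANCA intron 24 of 42, chr16:89770255-89770319, minus strand: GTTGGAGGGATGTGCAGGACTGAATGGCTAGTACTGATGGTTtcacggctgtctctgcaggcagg
SNHG5 intron 1 of 4, chr6:85678028-85678092, minus strand: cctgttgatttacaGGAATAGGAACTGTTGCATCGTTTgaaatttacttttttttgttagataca
SNHG5 intron 2 of 4, chr6:85677871-85677935, minus strand: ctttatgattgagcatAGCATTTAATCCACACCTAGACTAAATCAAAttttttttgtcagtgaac
SNHG5 intron 3 of 4, chr6:85677488-85677552, minus strand: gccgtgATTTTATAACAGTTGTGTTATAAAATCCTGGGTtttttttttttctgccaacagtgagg
SNHG5 intron 4 of 4, chr6:85677187-85677251, minus strand: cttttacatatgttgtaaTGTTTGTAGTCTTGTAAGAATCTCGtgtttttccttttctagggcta

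In these runs the capitals mostly end before the pyrimidine-rich stretch that leads up to the AG of the acceptor. The peaks of EEF1A1 and DNMT1 ran further, to within a few bases of the exon. Other high peaks, not printed here, covered all 65 bases of such a run and so reached into the exon. METTL17 (log2 fold 6.65), SRSF5 (6.51) and the last intron of HMGB1 (6.11) were among these. The median acceptor peak was 72 nt wide, so the printed runs do not give the share of peaks that stop before the pyrimidines. RPL6 shows the plainest case, a peak of 27 bases whose midpoint lay 37 nt before the exon.

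Across the list, 3140 of 3660 peaks lay at the acceptor of an intron, meaning that at least 10 nt of the peak fell in the last 100 nt of the intron of the gene's representative transcript. This was 85.79% of the peaks (95% Wilson interval 84.62 to 86.89). Their midpoints had a median of 31 nt before the exon, with quartiles at 40 and 17 nt before it. The body of introns held 303 peaks, exons 137, and 80 lay outside the representative transcript. The classes differed little in the authors' log2 fold over input, which had a median of 3.92 at acceptors, 3.91 in intron bodies and 4.01 in exons. The log2 fold of the whole list ran from its lower bound of 3 up to 7.60, and the median peak was 71 nt wide.

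Many of the 520 peaks away from these acceptors lay at an acceptor that the gene uses in another annotated transcript. There were 232 such peaks (44.62%), which brought the peaks at any annotated acceptor to 3372 (92.13%). Among them, 100 lay at an acceptor of a transcript annotated as a target of nonsense-mediated decay, the pathway that removes mRNA with an early stop codon, and 59 of these 100 acceptors were in no protein-coding transcript. Peaks at decay transcript acceptors included PRPF4B, a kinase of the spliceosome (log2 fold 5.13), SRSF6, an SR splicing factor (4.36), and HNRNPA2B1 (4.15).

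SR genes had both kinds of peak. SR proteins are splicing factors with domains rich in arginine and serine, and several of their genes contain a poison exon, an exon that brings in an early stop codon. Of their 34 peaks, 15 lay at representative acceptors, 13 (38.24%) at another annotated acceptor in 10 genes and 6 at no annotated acceptor. In all other genes 6.04% of 3626 peaks lay at such another acceptor. No test was made of this difference, since the genes were grouped with the results known. SRSF6 and TRA2A were marked by 1 peak each, at an acceptor outside the representative transcript. The peak of TRA2A had a log2 fold of 4.17. SRSF11 carried 10 peaks from log2 fold 3.50 to 5.95, and 5 of its 12 introns were bound. SRSF5 carried its highest peak at intron 5 (6.51).

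**Figure D1:**
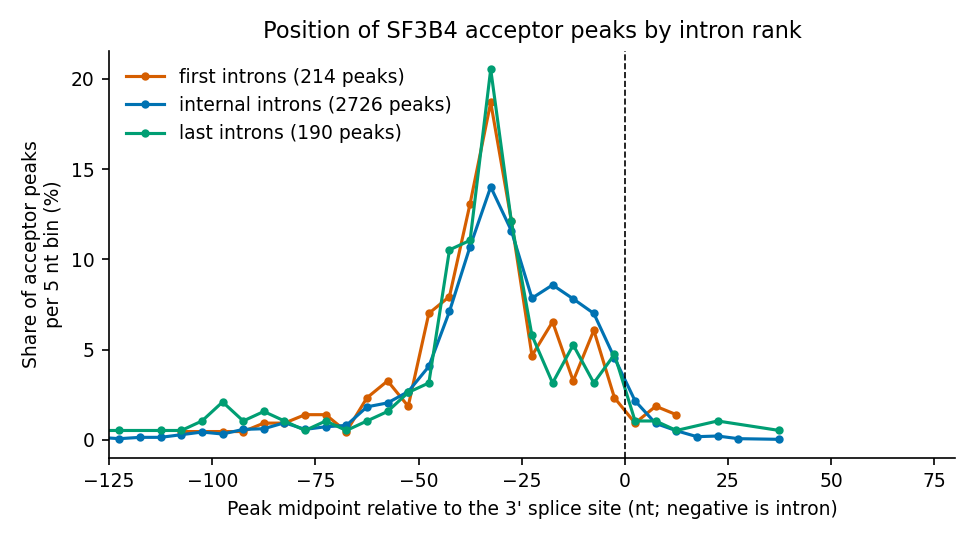
Share of acceptor peaks (y axis, % per 5 nt bin) against the distance of the peak midpoint from the 3' splice site. The x axis is in nt, with negative values in the intron. Shown are first (214 peaks), internal (2726) and last introns (190) of genes with 2 or more introns. Each line is 1 rank; all 3 peak near 30 nt before the exon, and internal introns hold more midpoints between there and the exon.

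An intron with at least 1 acceptor peak is called bound. There were 3122 bound introns in 1689 genes. Rank was compared in the 1654 genes that had at least 3 introns and at least 1 bound intron; these genes have 26135 introns, of which 3085 (11.8%) were bound. First introns made up 199 of the bound introns (6.451%, interval 5.637 to 7.373), internal introns 2709 (87.81%) and last introns 177 (5.737%, interval 4.971 to 6.614). The standard of comparison was an even spread, in which the bound introns of each gene fall on any of its introns alike. An even spread would give 269.7 first and 269.7 last introns, or 8.743% each. The observed counts were 0.738 and 0.656 times these, and both intervals lay below 8.743%. Internal introns were at 1.06 times their even count of 2546. Where the spread was taken within the gene and within the intron's length class, the ratios were 0.76 for first, 1.05 for internal and 0.707 for last introns.

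For first introns the lower count was seen within genes and not in the share pooled over genes, while last introns were lower in both. Pooled over genes, 12.03% of first, 11.87% of internal and 10.7% of last introns were bound. Each gene gives 1 first and 1 last intron to these shares whatever its number of introns, and a gene of few introns that has at least 1 bound has a high bound share by construction. In the 1455 bound genes of at least 6 introns the ratio to the even spread went from 0.621 at the first intron to 0.795 at the second and 0.944 at the third. It was 1.12 in the middle of the gene and 1.17 at the third intron from the end, and 0.859 and 0.636 at the next to last and last introns. Low ratios were found at both ends of the gene.

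Intron length moved with rank. First introns of the genes compared had a median length of 2016.5 nt, internal introns 777 nt and last introns 613.5 nt, while the bound ones measured 1141, 567 and 561 nt. Introns of 150 to under 500 nt were bound more often than shorter or longer ones at every rank, at 18.43% of first, 15.99% of internal and 13.33% of last introns. First introns of 2000 nt or more were bound in 8.554% and those under 150 nt in 9.244% of cases. Whether length plays a part in the rank pattern beyond the length-matched ratios given above was not tested.

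**Figure D2:**
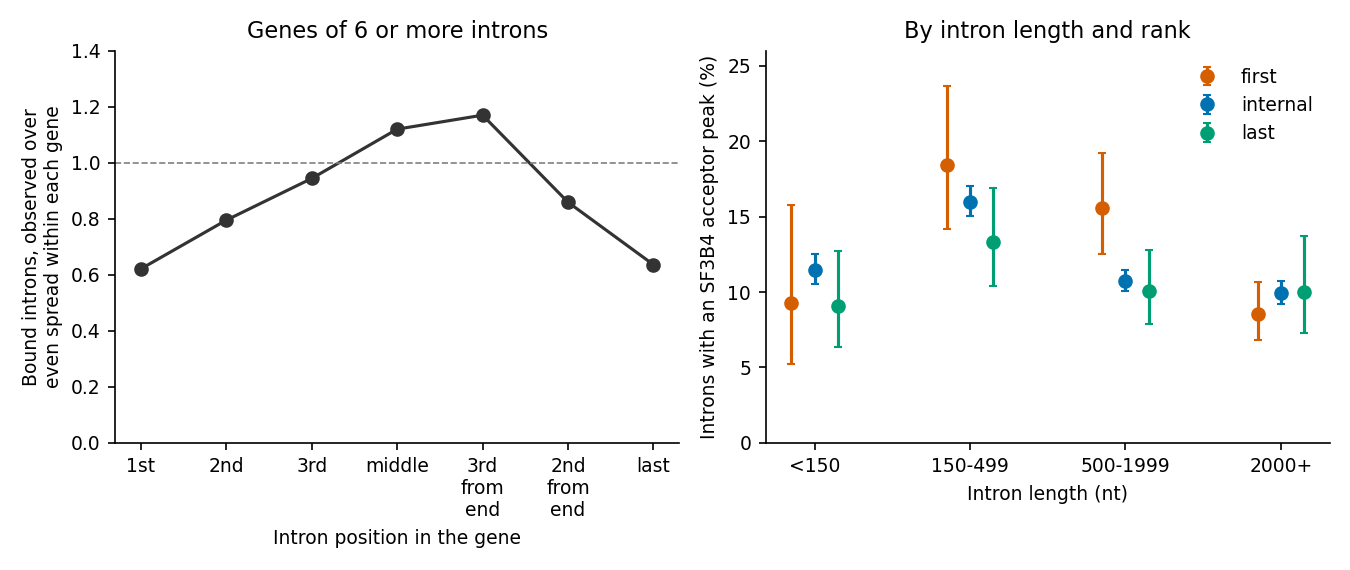
Left, bound introns observed over the number under an even spread within each gene (y axis) by position of the intron in 1455 genes of 6 or more introns (x axis); the dashed line is 1, and the first and last introns lie at 0.621 and 0.636. Right, share of introns bound (y axis, %) by length class (x axis, nt) and rank, pooled over genes, with 95% Wilson intervals as bars; the class of 150 to under 500 nt is the highest at each rank.

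The authors' fold did not follow the counts. Peaks at first introns had a median log2 fold of 4.05 (quartiles 3.57 to 4.66), those at internal introns 3.88 (3.48 to 4.53) and those at last introns 4.16 (3.58 to 4.66), and the quartile ranges overlapped almost wholly. These peaks include those of genes with 2 introns. The fold describes peaks within the list and no test between ranks was made. Among the bound introns of protein-coding genes, 2929 of 3030 lay between coding exons, 87 in the 5' UTR and 14 in the 3' UTR. The 5' UTR introns were bound at 0.755 times the even count and the 3' UTR introns at 1.12 times. First introns were below an even spread both in the 5' UTR (58 of 565 bound, ratio 0.69) and in the coding part (133 of 1048, ratio 0.758).

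The highest peaks at first introns were those of HGS, an endosomal sorting protein (log2 fold 5.88, chr17:81685506-81685591), HNRNPA2B1 (5.87), the transcriptional repressor HEY1 (5.84), HNRNPH1 (5.75) and SFPQ, a nuclear RNA-binding protein of paraspeckles (5.71). The highest at internal introns belonged to EEF1A1, the elongation factor that brings aminoacyl-tRNA to the ribosome (6.96 at intron 3 of 6), EIF4A1, the RNA helicase of translation initiation (6.85 at intron 5 of 10), RABGGTB, the beta subunit of an enzyme that attaches lipids to Rab proteins (6.76 at intron 4 of 8), RAD54L, a motor of homologous recombination (6.65 at intron 5 of 17) and RPL6 (6.65). At last introns HNRNPH1 led with 7.13 at intron 12 of 12, an intron in the 3' UTR, followed by HNRNPU (6.68), the poly(A)-binding protein gene PABPC1 (6.22, also a 3' UTR intron), HMGB1, a chromatin protein (6.11), and PPIA, the isomerase cyclophilin A (6.09). HNRNPH1 was thus among the leading genes at both its first and its last intron. EEF1A1, RPL6, HMGB1 and PPIA have many processed pseudogenes elsewhere in the genome; such copies lack introns, but the sources used here do not give how the authors placed reads that match several loci.

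Most genes with a bound intron had 1. There were 993 such genes (58.79% of 1689), 352 had 2, 158 had 3 and 84 had 4 bound introns. The 696 genes with at least 2 (41.21%, interval 38.88 to 43.57) held 68.19% of all bound introns. At least 5 bound introns were found in 102 genes, which held 19.7%. A bound gene had a median of 13 introns, against 7 for all protein-coding genes with an intron, and the median share of its introns that were bound was 12.5%.

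The number of introns in a gene moved with these counts. Among protein-coding genes with 1 to 4 introns 2.116% had a bound intron, and the share was 14.25% at 10 to 19 introns and 20.89% at 30 or more. Counted over introns, the range was narrow, from 1.046% of introns bound in genes of 1 to 4 introns to 1.999% at 10 to 19 and 1.177% at 30 or more. Within genes, bound introns were often neighbours. In the 696 genes with at least 2, 559 pairs of bound introns lay next to each other, against 400.8 with introns spread evenly, a ratio of 1.39.

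**Figure D3:**
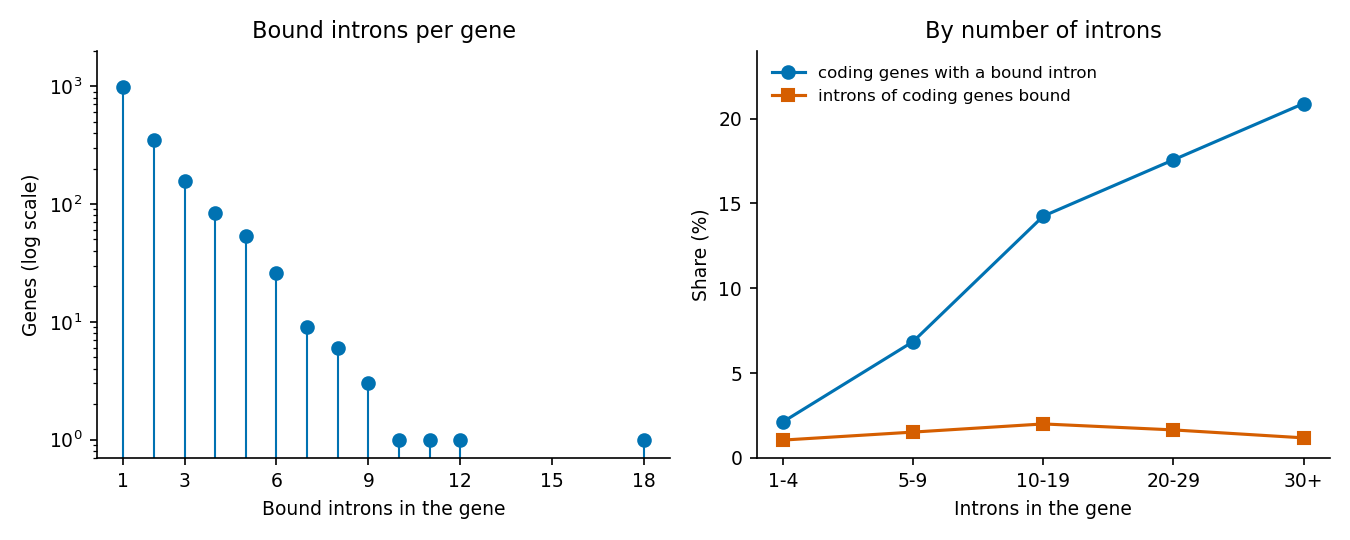
Left, number of genes (y axis, log scale) by number of bound introns in the gene (x axis); 993 genes have 1 and FANCA has 18. Right, share of all protein-coding genes with a bound intron and share of the introns of all protein-coding genes that were bound (y axis, %) by number of introns in the gene (x axis); the first rises to 20.89% and the second stays between 1.046% and 1.999%.

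FANCA had the most bound introns, 18 of 42. It encodes a core subunit of the Fanconi anaemia complex, which signals DNA crosslinks. Its bound introns ran from intron 7 to intron 40, with log2 fold 3.03 to 5.31, and included the neighbours 7 to 9, 13 to 15, 17 to 19 and 22 to 25. PCNX3 followed with 12 of 34 and CAD with 11 of 43. CAD encodes the enzyme of the first steps of pyrimidine synthesis, and its peaks ranged from 3.17 to 5.86.

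DGCR8 had 10 of its 13 introns bound, namely introns 1 to 8, 10 and 13, and HNRNPH1 9 of 12. DGCR8 is the RNA-binding partner of Drosha in microRNA processing. Its peaks ranged from log2 fold 3.01 at intron 5 to 5.53 at intron 4. Those of HNRNPH1 ranged from 3.03 at intron 2 to 7.13 at intron 12, so a high peak at 1 intron stood beside low ones in the same gene. RHOT2, a GTPase of mitochondrial transport, had 9 of 18, with introns 15 to 18 at its 3' end all bound, and the splicing regulator RBM5 9 of 24.

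HNRNPU had 8 of 13 introns bound, with log2 fold 3.01 to 6.68. The other genes with 8 were SRCAP, the ATPase of a remodelling complex that deposits H2A.Z (8 of 33, highest 6.44), EIF4G1, the scaffold of translation initiation (8 of 32, 5.66), PRRC2B (8 of 30, 5.44), the ubiquitin ligase RNF123 (8 of 38, 5.13) and ACADVL, an enzyme of fatty acid oxidation (8 of 19, 4.88). Of the 9 genes with 7, the highest by fold were POLE, the catalytic subunit of DNA polymerase epsilon (7 of 48, 6.05), and HNRNPA1 (7 of 9, 5.97). SNHG5, a host gene of small nucleolar RNAs (snoRNAs), was the 1 gene of 4 or more introns with every intron bound, at log2 fold 4.34, 4.27, 3.74 and 4.69 from intron 1 to intron 4. More introns were bound than not in 30 genes of 4 or more introns, among them CSNK1D (7 of 8), RACK1 (6 of 7) and RPS4X (5 of 6), which were chosen after their values were seen.

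**Figure D4:**
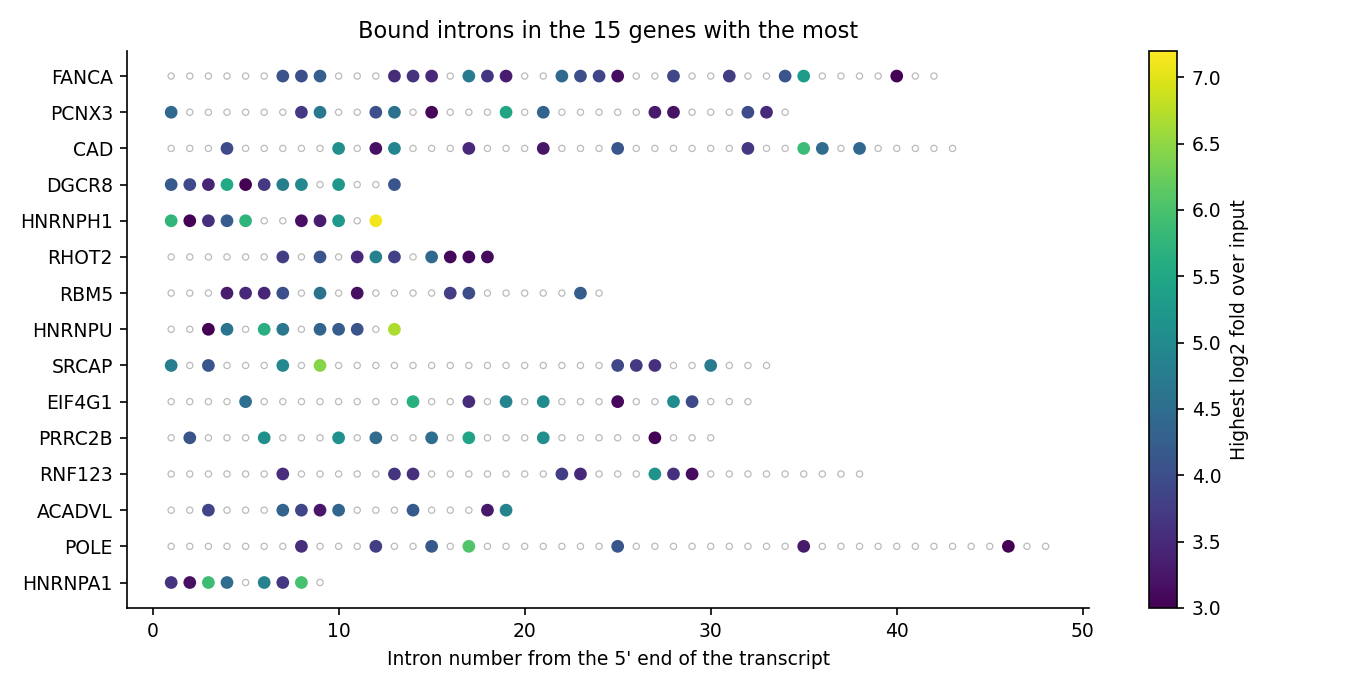
Bound introns (filled points) and other introns (open points) by intron number from the 5' end (x axis) in the 15 genes with the most bound introns (y axis), with ties taken by highest fold; colour gives the authors' highest log2 fold at the intron. FANCA has 18 filled points and runs of neighbours, and DGCR8 has 10 of 13.

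Genes were then taken by function. Of 19969 annotated protein-coding genes, 1757 (8.8%) had a peak, and a further 118 genes with a peak were of other types, among them 25 small nuclear RNA genes and 21 long intergenic noncoding RNA genes. The lists of functions were fixed with earlier results known, and no set test was made. A gene without a listed peak is not shown to lack SF3B4, and the level of each gene's RNA was not analysed here. None of 40 genes typical of other tissues, such as liver, muscle, blood or neurons, had a peak; markers that define the line itself cannot be checked in a list of peaks. All but 3 of the 1757 genes have an intron in the representative transcript, against 1181 intronless protein-coding genes in all. The 3 exceptions were CREBZF, GPR135 and MC1R, named because they fall outside the pattern. The peaks of CREBZF and GPR135 lay near acceptors of transcripts annotated for nonsense-mediated decay.

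Among genes of the translation apparatus, those of cytosolic ribosomal proteins carried peaks at a high share and those of mitochondrial ribosomal proteins did not. Of 79 cytosolic ribosomal protein genes 66 (83.5%) had a peak, and 127 of their 359 introns (35.4%) were bound, against 1.61% of all introns of protein-coding genes. Their median highest log2 fold was 4.78, against 4.31 over all protein-coding genes with a peak, and 40 of them had at least 2 bound introns. These genes are short of introns, with a median of 4. In those with 3 or more introns 30 bound introns were first, 69 internal and 27 last ones. Over all genes of 3 or more introns 6.451% of bound introns were first and 5.737% last. An even spread was not taken within the list, so the counts do not show a preference for either end. The highest were RPL6 (6.65), RPL17 (6.53), RPL10 (6.30) and RPL18 (5.91). Among 76 mitochondrial ribosomal protein genes 6 (7.89%) had a peak, a share near the 8.8% of all genes. Of the 326 introns of the 76 genes 7 (2.15%) were bound, against the 1.61% over all protein-coding genes. MRPL4 (4.84) and MRPL38 (3.94, 3 of 8 introns) were highest.

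Translation initiation and elongation factors had a peak in 16 of 44 genes (36.4%), 12 of them with at least 2 bound introns, and the highest by fold were EEF1A1, EIF4A1 and PABPC1, with 3 bound introns each; EIF4G1 had the most bound introns in this list, 8. Aminoacyl-tRNA synthetases, which charge tRNAs with amino acids, had one in 13 of 39 (33.3%). All 40 bound introns of the synthetase genes were internal, against 87.81% of bound introns over all genes of 3 or more introns. These genes have a median of 15 introns, and an even spread was not taken within the list. The highest there were IARS (5.69, 4 of 33 introns), VARS2 (5.50, 6 of 28) and AARS (5.44, 1 of 20). Ribosome biogenesis factors had a peak in 17 of 42 genes (40.5%), led by the nucleolar GTPase GNL3 (5.55, 5 of 14 introns) and nucleolin, NCL (5.20, 3 of 13).

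RNA-binding and splicing genes were the next group. Of 24 hnRNP genes, which encode abundant nuclear pre-mRNA-binding proteins, 17 (70.8%) had a peak, 13 had at least 2 bound introns and 61 of 225 introns (27.1%) were bound. Besides HNRNPH1, HNRNPU, HNRNPA1 and HNRNPA2B1, HNRNPA3 had 5 of 10 introns bound and a highest log2 fold of 5.88. SR genes had a peak in 13 of 17 (76.5%), but a bound intron of the representative transcript in only 7. DEAD-box RNA helicase genes had one in 12 of 29 (41.4%), and DDX5 (6.09, 6 of 12 introns), DDX11 (5.71, 6 of 25) and DDX17 (5.50, 5 of 12) were the highest. Other core spliceosome genes had a peak in 15 of 57 (26.3%), led by RBM39, a splicing factor of the U2AF65 family (6.07, 6 of 16 introns), and LUC7L (5.09, 1 of 9).

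The list of U2 snRNP proteins and their partners had a peak in 10 of 22 genes (45.5%), with 13 of 274 introns (4.74%) bound. It joins the SF3b and SF3a proteins with partners such as SF1, U2AF1 and U2AF2, so these shares are not those of the U2 snRNP alone. SF3B4 was bound in its own pre-mRNA at intron 1 of 5 (log2 fold 4.69), at chr1:149927306-149927346, with the midpoint 32 nt before the exon. SF3B3 was bound at intron 19 of 25 (4.93) and SF3B1, the subunit that holds the branch point adenosine, at intron 4 of 24 (4.74). Read as whole reads, in the way given under other observations, these 3 peaks rest on few reads. They matched 28 immunoprecipitate reads for SF3B4, 33 for SF3B3 and 29 for SF3B1, each over 1 input read. DDX46 (5.66), SF1, the first protein to read the branch point (5.03, introns 3 and 5 of 13), SNRPA1 (4.64, introns 1 and 6 of 8), U2SURP (4.45), CHERP (3.76), PUF60 (3.64) and U2AF2, which reads the pyrimidine tract (3.58, introns 6 and 9 of 11), were the other members. No peak was listed in SF3B2, SF3B5, SF3B6, PHF5A, SF3A1, SF3A2, SF3A3, SNRPB2, U2AF1, DHX15, RBM17 or HTATSF1. Cleavage and polyadenylation genes had a peak in 5 of 19 (26.3%), and genes of nonsense-mediated decay and the exosome in 10 of 26 (38.5%), led in the latter by the decay helicase UPF1 (4.84, 4 of 23 introns) and the exonuclease XRN1 (4.84, 1 of 41). CPSF1, the large subunit of the cleavage and polyadenylation specificity factor, led the former with 7 of 37 introns bound and a highest fold of 4.31, followed by RBBP6 (4.17).

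Genes of DNA copying and repair had shares near 40%. DNA replication factors had a peak in 17 of 42 genes (40.5%), Fanconi and homologous recombination genes in 15 of 36 (41.7%) and mitotic chromosome and spindle genes in 18 of 47 (38.3%). Of the introns of these lists 5.11%, 7.12% and 2.75% were bound, against 1.61% of all introns of protein-coding genes. In the repair group 47 introns were bound, of which 18 were those of FANCA, so 1 gene held much of the count. RFC5, a subunit of the clamp loader, reached 5.34 among the replication factors, after POLE. RECQL4, a DNA helicase, had 5 of 20 introns bound (highest 5.24), and BUB1B, a kinase of the spindle checkpoint, reached 5.64, ahead of the condensin subunit NCAPH2 (5.17). Nuclear pore and transport genes had a peak in 24 of 45 (53.3%), led by the importins IPO9 and KPNB1 and the exportin CSE1L, all at 5.24, with 2, 3 and 2 bound introns. Chromatin genes had one in 22 of 68 (32.4%), with 2.92% of the introns of the list bound. The maintenance DNA methyltransferase DNMT1 had the neighbouring introns 9 to 13 bound, with a highest fold of 6.22. The histone methyltransferase KMT2D had 5 of 53 introns bound (5.58).

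Among metabolic and protein-folding genes, glycolytic enzymes had a peak in 8 of 17 (47.1%), nucleotide synthesis enzymes in 12 of 27 (44.4%) and chaperones in 18 of 42 (42.9%). Chaperone genes had 9 first, 23 internal and no last introns bound, and HSP90AB1 (6.01) and HSPA8 (5.69) were highest. Over all genes of 3 or more introns 6.451% of bound introns were first and 5.737% last, and an even spread was not taken within this list. CAD, SHMT2 (5.22) and IMPDH2 (5.17) led the nucleotide synthesis enzymes and ALDOA (5.53), PFKL (5.34), PKM (4.97) and GPI (4.79) the glycolytic ones. Respiratory chain and ATP synthase genes (8 of 76, 10.5%) and proteasome subunits (3 of 32, 9.38%) had shares close to the 8.8% of all coding genes. So did RNA polymerase II and Mediator genes (5 of 48, 10.4%). Counted over introns, the bound shares were 2.91%, 1.02% and 1.68% in this order, against 1.61% of all introns of protein-coding genes. The highest peaks there were those of ATP5F1B, the catalytic beta subunit of ATP synthase (6.20, 4 of 9 introns), and NDUFB8 (4.88), of the proteasome subunit genes PSMB1 (5.05 at intron 1) and PSMD13 (4.79), and of CDK9, counted with the polymerase (5.31, at no representative acceptor), and MED24 of Mediator (5.24, 5 of 25). Cytoskeletal genes had a peak in 9 of 42 (21.4%), led by TUBB (5.69, 2 of 3 introns) and CFL1 (5.40, 2 of 4). Coat and vesicle genes had one in 11 of 43 (25.6%), led by COPG1 (4.84) and AP3D1 (4.69, 4 of 29). Of the introns of the cytoskeletal list 1.64% were bound and of the coat and vesicle list 1.94%, near the 1.61% over all protein-coding genes.

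Noncoding host genes of snoRNAs, whose introns carry the snoRNA and whose spliced RNA encodes no protein, had a peak in 11 of 19 matched genes (57.9%). Of their 98 introns 27 (27.6%) were bound. SNHG1 had introns 1 to 6 of 9 bound (highest 5.87), GAS5 introns 5 to 10 of 11 (5.56), EPB41L4A-AS1 none of its 2 introns at the acceptor (5.09) and SNHG16 both of its introns (4.90). In the whole list 60 peaks overlapped an annotated small structural RNA gene on the same strand. Of the 1757 coding genes with a peak 370 were in one of the lists; the other 1387 had a median highest log2 fold of 4.20.

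**Figure D5:**
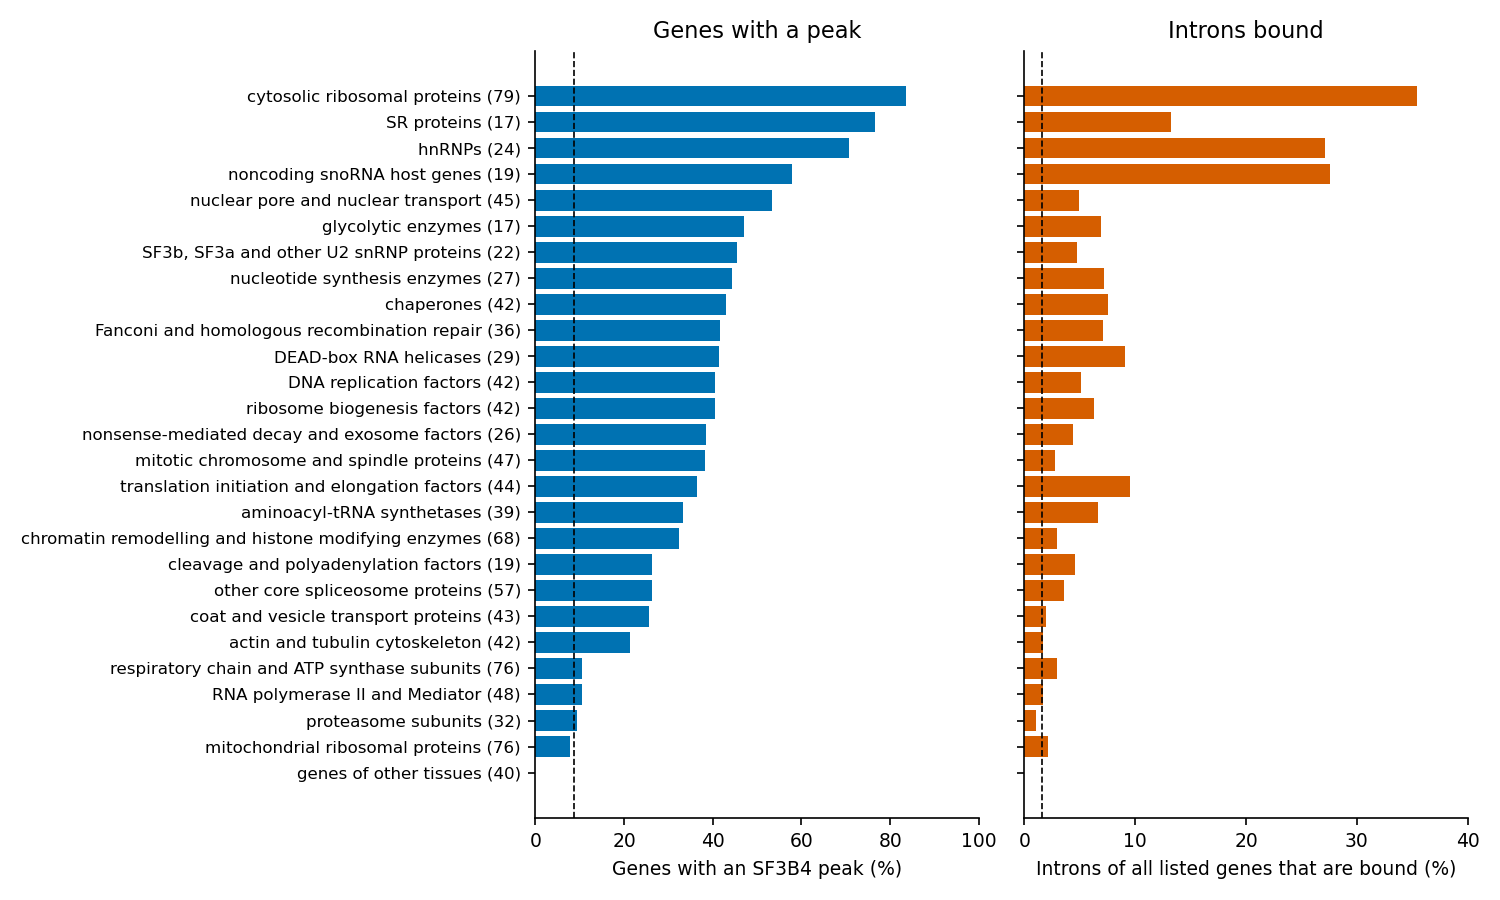
Left, share of the genes of each list with an SF3B4 peak (x axis, %), with the number of matched genes in brackets; right, share of all introns of those genes that were bound (x axis, %). Dashed lines are all protein-coding genes (8.8% and 1.61%); cytosolic ribosomal protein genes have the longest bars (83.5% and 35.4%) and genes of other tissues have none.

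Bound introns were compared with the other introns of the same genes for features that the peak list does not hold. A retained-intron transcript in the annotation covered 675 of 3012 bound introns (22.41%, interval 20.96 to 23.93) and 1751 of 22750 others (7.697%, 7.357 to 8.05). The difference was present in each length class, from 42.03% against 18.04% under 150 nt to 2.496% against 0.3657% at 2000 nt or more. An alternative acceptor was annotated for 17.39% of bound and 13.99% of other introns, and the exon after the intron had a median length of 113 nt and 122 nt. These comparisons are over introns of 1 list and were not tested.

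The letters of the acceptor itself were similar. They could be read for 1336 of 3030 bound introns (44.09%) and 3897 of 22765 others (17.12%), because only introns covered by an annotated transcript hold letters, so retained introns are over-represented in both. Pyrimidines were counted in the 20 nt before the terminal bases of the intron, with the AG left out. They made up 73.14% ± 10.47 (SD over 1336 introns) in bound and 72.33% ± 10.99 (SD over 3897) in other introns. The motif CTNAC, a short form of the human branch point in which the A is the branching base, was searched on the RNA strand only, 50 to 15 nt before the exon. It was found in 26.72% of bound (interval 24.42 to 29.16) and 24.28% of other introns (22.95 to 25.65), and these intervals overlap. Among introns of 150 to under 500 nt the shares were 29.6% and 23.06%, and the intervals, 25.55 to 33.99 and 20.67 to 25.65, just overlapped. The runs of EEF1A1 and RPL6 printed above both contain it as CTTAC, with the A 27 nt before the exon and inside the peak. The run of RPL18 contains it as CTCAC, with the A 20 nt before the exon and also inside the peak. The other printed runs held no match in the stretch searched. A match of these letters is not a mapped branch point.

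Donors of the rare U12 type use another particle, in which SF3b is also present. The U12-type donor GTATCC opened 9 of 1297 bound introns whose donor could be read and 26 of 4114 others, while ATATCC opened 0 and 8. The 9 introns lay in ZCCHC8, TAF1C, DYNC1LI2, UBXN4, GNL3, TEPSIN, NAA20, DDX51 and STRADA, all named because the count is small. Their log2 fold ran from 3.25 in TAF1C to 4.95 in DYNC1LI2, within the range of the other peaks.

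First introns held a smaller share of intron peaks in the SF3B4 list than in the G4PID list. Such a share also depends on how many introns the genes have, and the lists were not matched for this. The comparison therefore cannot tell a preference among introns from a difference in genes. Of 3299 SF3B4 peaks with the midpoint in an intron 239 (7.245%, interval 6.409 to 8.18) lay in the first intron, and of 83 such G4PID peaks 15 (18.07%, interval 11.27 to 27.7), an odds ratio of 0.354 (two-sided Fisher's exact test, p = 0.00105). When only the highest peak of each gene was kept, the ratio of the odds was 0.359, with p = 0.0163 by the same exact test. Peaks are the unit of this test and not replicates, the 83 peaks lie in 50 genes, and both lists were made over the input libraries of the series.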

How the data were processed

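The authors deposited a headerless peak list for each antibody. Its 2 values per peak were taken as the −log10 p-value and the log2 fold over input that the authors deposited, since eCLIP lists usually have this order and all values lay above 5 and from 3 up. Per the submitters' processing notes, reads went through cutadapt 3.4 and STAR 2.7.0d; hg19 and hg38 are named as builds. Not given in the sources used here are the peak caller, its thresholds, the treatment of reads that map to several places and how the 2 libraries were joined.

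Positions were compared with GENCODE release 29. Each peak went to a gene on its strand. 1 representative transcript per gene was used, the APPRIS principal form, then the longest coding sequence. Introns are numbered from its 5' end. An acceptor peak has at least 10 nt in the last 100 nt of an intron. The even spread gives each intron of a gene the gene's bound share. Intervals are 95% Wilson intervals. The 1 test is a two-sided Fisher's exact test on peaks with a threshold of 0.05. The scripts were tested on simulated data. Sequences were read from GENCODE transcripts.

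Members and lists were chosen with earlier results of these data known. The rule for named genes took the 2 to 4 members of highest log2 fold in each list and the 15 genes with the most bound introns. It also took genes of at least 4 introns with every intron bound and the 5 highest acceptor peaks at each rank. The list of U2 snRNP proteins and partners was named in full. Genes named at other annotated acceptors, in intronless genes or with U12-type donors were chosen after their values were seen. Alternatives changed the threshold on fold or p, the overlap, the acceptor region, the transcript, the counting of peaks and the inclusion of small RNA and ribosomal protein genes. Python 3.11.15, numpy 2.4.6, scipy 1.17.1 and matplotlib 3.10.9 were used.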

Additional observations from a re-analysis of the deposited data

How the results depend on the processing

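First and last introns stayed below their even share under every alternative tried for them. First introns made up 7.441% of bound introns (even spread 9.03%) with peaks of log2 fold 4 or more and 5.559% (8.574%) with the transcript of most introns, and last introns 7.093% (9.03%) with log2 fold 4 or more. Genes with at least 2 bound introns numbered 301 of 986 at log2 fold 4 or more and 283 of 755 at −log10 p of 10 or more, and protein-coding genes with a peak 1040 and 798. The share of peaks at acceptors was 82.91% at −log10 p of 10 or more, 79.02% with an overlap of 30 nt, 82.62% with the last 50 nt of the intron and 87.68% with the transcript of most introns. The fewer genes at higher thresholds follow from the smaller number of peaks; the cause of the other shifts was not tested. In all, 11 of 47 values moved. Leaving out ribosomal protein genes, chosen after seeing the data, gave 5.711% first and 5.069% last introns against an even 8.169%. No paired analysis was possible because each antibody has 1 list for both libraries with no value per library, and leaving out 1 library could not be run for the same reason. Peak lists give no depth, so introns with few reads cannot be told apart from unbound ones.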

Other observations

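The chromosomes differed in how many of their protein-coding genes had a peak. The share was highest on chromosomes 21 (13.9%), 17 (13.7%), 22 (13.6%) and 16 (13%), and among the lowest on chromosomes 4 (4.52%) and 18 (5.95%), against 8.8% over all.

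The fold and p of many peaks fell on a small set of joint values, 796 distinct pairs for 3660 peaks. For 2493 peaks (68.11%) both values matched those of exactly 1 pair of whole numbers, read as immunoprecipitate and input reads, with a single ratio of library totals of 0.9209 and an exact two-sided binomial test. The tolerance was 0.0001 in log2 fold and 0.01 in −log10 p, and no peak matched more than 1 pair. Read this way, a matched peak held a median of 36 immunoprecipitate reads (quartiles 29 to 45). Of the matched peaks, 768 had 1 input read, 806 had 2 and 532 had 3. For such peaks the order of genes by fold rests on few input reads. The other 1167 peaks, with a median −log10 p of 15.66, matched no pair. This value recurred at unlike folds, as at EEF1A1 intron 3 (6.96) and HNRNPU intron 10 (4.22). Other peaks had larger values, such as 56.4 at HNRNPH1 intron 1 and 400 at its intron 4, so 15.66 is not a bound on the whole list. Whether it is a bound on the p-value for a part of the peaks was not tested. Matched peaks had a median −log10 p of 7.467, so the read counts above describe mainly the peaks of weaker p. This is a match of values and not a method that any source states.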
